A study of Mus musculus with 6 samples.

Results

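The insulin-like growth factor (IGF) axis was followed here through 10 genes, chosen by symbol: the ligand genes Igf1 and Igf2, the receptor genes Igf1r and Igf2r, the adaptor genes Irs1 and Irs2, and the binding protein genes Igfbp2, Igfbp3, Igfbp4 and Igfbp5. All 10 were found among the 39179 gene identifiers of the count files, and all 10 passed the filter on low counts. The RNA came from mouse tumour grafts of MMTV-Neu cells in FVB mice, a model in which a mammary tumour virus promoter drives the Neu (ErbB2) oncogene in mammary epithelium. There were 3 libraries with the genotype label WT and 3 with the label AXL KO, AXL being a receptor tyrosine kinase. Every group shared the FVB strain and the MMTV-Neu source, and the labels give no treatment, age, time of growth, host genotype, number of tumour lines or pooling of animals. Whether each graft grew in its own animal is not stated either, so p-values here capture the spread among these samples alone, and that spread may be technical.

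IGF1 and IGF2 are small secreted hormones that bind the tyrosine kinase IGF1R, which phosphorylates the adaptors IRS1 and IRS2 and through them switches on PI3-kinase, AKT and mTOR. IGF2R, the mannose-6-phosphate receptor, has no kinase and removes IGF2 from the cell surface, and the IGF binding proteins hold the ligands outside the cell and can block or prolong their action. In the mammary gland IGF1 comes largely from stroma and acts on epithelium, and IGFBP5 is known for its rise when the gland regresses after lactation.

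Libraries held 26541009 to 32491807 counts in genes. Axl itself was counted at 52.6 to 70.2 CPM (counts scaled to a common library size, with a TMM factor) in the libraries labelled WT and at 48.2 to 74.0 CPM in those labelled AXL KO. The gene's counts therefore did not tell the groups apart, and directions below are between libraries as labelled. Grafts hold tumour and host cells together, and in such bulk samples fewer cells of a type and less RNA per cell cannot be told apart. The epithelial markers were abundant, with a summed level of 11538 to 12843 CPM in WT and 11563 to 13759 CPM in AXL KO libraries, although Krt19 was nearly absent at 0 to 0.247 CPM. Erbb2, the gene of the model's oncogene, lay at 6765 to 7947 CPM and 8080 to 10018 CPM. Of 14850 genes tested, 37.4% passed an adjusted p of 0.05 (edgeR quasi-likelihood test, Benjamini-Hochberg over all tested genes), 19.1% higher and 18.3% lower in AXL KO libraries.

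In the libraries labelled AXL KO 2 binding protein genes fell, Igfbp4 by 2.83-fold and Igfbp3 by 1.42-fold, and the binding protein gene Igfbp5 and the adaptor gene Irs1 rose, by 1.47-fold and 1.28-fold. The other 6 members did not pass, among them both ligands, both receptors, Irs2 and Igfbp2. These 4 of 10 genes called, 2 higher and 2 lower, stand beside 37.4% of all genes tested, so the share called was near the background. The members' median log2 fold change was -0.22, against 0.00032 over all tested genes. Levels in CPM without overlap between the groups were found for the same 4 members, beside 52.1% of tested genes. For Igfbp5 the unscaled counts did overlap, at 56248 in WT replicate 2 and 52792 in AXL KO replicate 1.

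The DNA just before the start sites of these 4 called genes is shown to place them in the genome, 2 that fell and 2 that rose. Each line gives the 250 bases upstream of the RefSeq start (GRCm38.p6), on the gene's own strand: chr11:99040994-99041243 on the plus strand for Igfbp4, and on the minus strand chr11:7213924-7214173 for Igfbp3, chr1:72874866-72875115 for Igfbp5 and chr1:82291440-82291689 for Irs1. Capitals mark any match to the motifs searched.
Igfbp4: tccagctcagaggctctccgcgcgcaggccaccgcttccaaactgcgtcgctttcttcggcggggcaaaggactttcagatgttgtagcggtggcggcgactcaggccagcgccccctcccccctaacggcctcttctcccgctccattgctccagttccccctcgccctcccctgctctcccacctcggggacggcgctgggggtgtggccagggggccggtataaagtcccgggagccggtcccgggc
Igfbp3: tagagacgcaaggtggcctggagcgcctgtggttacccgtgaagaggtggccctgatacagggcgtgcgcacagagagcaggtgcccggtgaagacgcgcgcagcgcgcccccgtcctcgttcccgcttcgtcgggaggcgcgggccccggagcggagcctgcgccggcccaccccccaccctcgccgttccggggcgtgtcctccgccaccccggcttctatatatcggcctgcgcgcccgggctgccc
Igfbp5: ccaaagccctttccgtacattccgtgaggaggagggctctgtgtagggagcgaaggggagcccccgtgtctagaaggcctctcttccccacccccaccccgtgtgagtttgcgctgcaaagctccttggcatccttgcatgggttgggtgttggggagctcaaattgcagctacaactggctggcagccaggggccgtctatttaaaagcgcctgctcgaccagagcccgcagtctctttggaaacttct
Irs1: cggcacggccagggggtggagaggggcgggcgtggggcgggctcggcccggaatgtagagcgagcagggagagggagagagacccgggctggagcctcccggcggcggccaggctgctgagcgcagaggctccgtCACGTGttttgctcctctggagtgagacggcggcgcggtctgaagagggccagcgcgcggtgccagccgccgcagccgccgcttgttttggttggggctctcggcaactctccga
The motifs were ACGTG (the core of the hypoxia response element), TGTTTAC (a forkhead site, the class that FOXO factors read) and TTCNNNGAA (a STAT site), each on both strands. In this stretch of Irs1 the palindrome CACGTG holds ACGTG on both strands in overlap, and the other 3 sequences hold none of the 3 motifs. Over 14 RefSeq windows of the 10 members, 5 held ACGTG, 1 each of Igf2, Igf2r, Igfbp2, Irs1 and Irs2, and none held TGTTTAC or TTCNNNGAA. Of 32851 windows of the same length over all genes, 16.6% held ACGTG, 3.17% TGTTTAC and 7.02% TTCNNNGAA. These matches describe letters, not bound sites. By GC content the Igfbp5 window stood lowest of the 4, at 58.8%, against 69.2% for Igfbp4, 72.4% for Irs1 and 73.2% for Igfbp3.

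Per length of exon the members spanned a wide range. Igfbp5 was the most abundant, at 279 ± 34.2 CPM per kb of merged exons in WT and 411 ± 87.5 in AXL KO libraries (SD, n = 3 per group here and below). Igfbp3 and Igf2r followed in WT, at 66.2 ± 7.33 and 63.0 ± 13.1 CPM per kb, and in AXL KO at 46.6 ± 4.04 and 47.9 ± 1.25 CPM per kb. These neighbours in the order did not differ beyond their spread in either group. Igfbp4 stood at 20.8 ± 4.09 CPM per kb in WT, above Irs1 at 13.6 ± 0.684, but in AXL KO at 7.34 ± 2.68, below Irs1 at 17.4 ± 0.937. Igfbp2 (6.49 ± 1.72) and Irs2 (5.03 ± 1.33) overlapped in WT, and Igfbp4, Irs2 (7.14 ± 0.968) and Igfbp2 (6.24 ± 1.56) overlapped in AXL KO. Igf1 (3.27 ± 0.781 and 2.10 ± 0.919 CPM per kb) and Igf1r (1.10 ± 0.301 and 1.20 ± 0.0924) were low, and Igf2 was lowest at 0.0627 ± 0.0350 and 0.0487 ± 0.0168 CPM per kb. Merged exons include stretches that not every transcript uses, and the divisor is then longer than any 1 transcript.

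**Figure D1:**
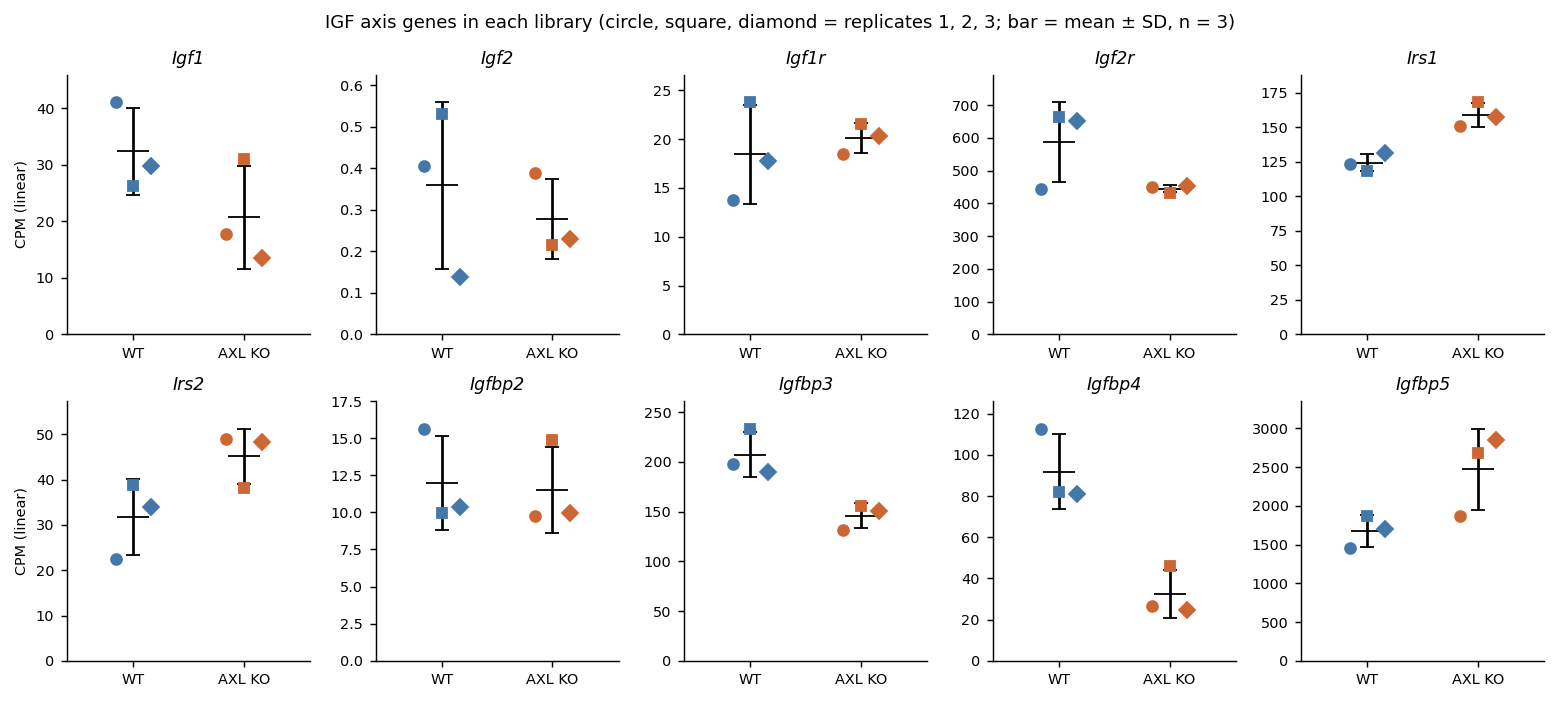
Level of each IGF axis gene in every library. The vertical axis of each panel is CPM on a linear scale from 0, points are single libraries (circle, square and diamond for replicates 1, 2 and 3), and bars are the mean ± SD of 3 libraries. The groups are fully apart for Irs1, Igfbp3 and Igfbp4 and touch for Igfbp5, where the highest WT and the lowest AXL KO library both lie near 1869 CPM.

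The ligand gene Igf1 (ENSMUSG00000020053, GRCm38 chromosome 10, 87858265 to 87937042) was counted at 41.1, 26.2 and 29.9 CPM in WT replicates 1, 2 and 3 and at 17.7, 31.0 and 13.6 CPM in AXL KO replicates 1, 2 and 3. AXL KO replicate 2 lay among the WT libraries and the other AXL KO libraries below all of them. Its log2 fold change came to -0.64 ± 0.28 (SE, 95% interval from -1.28 to -0.0022), and it did not pass (edgeR adjusted p = 0.104, unadjusted p = 0.0494). It was -1.05 without AXL KO replicate 2 (edgeR adjusted p = 0.00407), -0.40 without AXL KO replicate 3 (0.277) and -0.43 without WT replicate 1 (0.275).

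Igf2, the fetal ligand, imprinted so that the paternal copy is read (chromosome 7, 142650766 to 142666816), was close to absent. It had 11, 16 and 4 counts in WT and 11, 7 and 7 counts in AXL KO libraries. At such counts a difference was not detectable, with a log2 fold change of -0.38 and a 95% interval from -1.51 to 0.75 (edgeR adjusted p = 0.579), and without WT replicate 2 it was 0.03. A second annotated gene, Gm49394, shares 62.8% of the Igf2 exon bases, so the split of these few reads is uncertain. H19, the maternally read RNA 72.6 kb away, was at 15.9, 6.95 and 6.87 CPM in WT and 4.25, 8.90 and 2.30 CPM in AXL KO libraries. Its groups overlapped, and its log2 fold change of -0.93 ± 0.48 (SE) did not pass (edgeR adjusted p = 0.152). It was -1.60 without AXL KO replicate 2 (edgeR adjusted p = 0.0176), -0.58 without AXL KO replicate 3 (0.353) and -0.42 without WT replicate 1 (0.496).

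Neither receptor gene passed. Igf1r (chromosome 7, 67952827 to 68233668, 42.2 Mb from Axl on the same chromosome) was at 13.7, 23.8 and 17.8 CPM in WT and 18.5, 21.5 and 20.3 CPM in AXL KO libraries. All 3 AXL KO libraries fell inside the WT range. The estimate was a log2 fold change of 0.12 ± 0.18 (SE), its 95% interval running between -0.28 and 0.53 (edgeR adjusted p = 0.614). Without WT replicate 1 the estimate was -0.049.

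Igf2r (chromosome 17, 12682406 to 12769664) was counted at 445, 663 and 651 CPM in WT and at 452, 432 and 453 CPM in AXL KO libraries. WT replicate 1 lay with the AXL KO libraries, and the other WT libraries lay above them. The log2 fold change was -0.40 ± 0.14 (SE), just outside the threshold (edgeR adjusted p = 0.0507). Without WT replicate 1 it was -0.56, with an edgeR adjusted p of 0.000737, and with DESeq2 the adjusted p was 0.0181.

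Irs1, the adaptor first found under the insulin receptor (ENSMUSG00000055980, chromosome 1, 82233101 to 82291416), rose. Its level was 123, 119 and 131 CPM in WT and 151, 168 and 157 CPM in AXL KO libraries. Every AXL KO library was above every WT library, and the spread within groups was small. The mean went from 124 ± 6.25 to 159 ± 8.57 CPM, a log2 fold change of 0.35 ± 0.08 (SE, edgeR adjusted p = 0.00674), and with 1 library left out it stayed between 0.31 and 0.39. An opposite-strand gene, Gm9747, covers 30.9% of the Irs1 exon bases and had 1 to 4 counts per library. Without a statement on strand in counting, reads of the shared part cannot be told apart.

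Irs2, the adaptor that leads insulin signalling in liver (chromosome 8, 10984681 to 11008458), went the same way but did not pass. It was at 22.5, 38.9 and 33.9 CPM in WT and 48.9, 38.1 and 48.4 CPM in AXL KO libraries, with AXL KO replicate 2 just under WT replicate 2. The log2 fold change was 0.50 ± 0.19 (SE, edgeR adjusted p = 0.0595). Without WT replicate 1 it was 0.31 (edgeR adjusted p = 0.0885). It passed with DESeq2 (adjusted p = 0.0253), with no filter (edgeR adjusted p = 0.0245), with AXL KO replicate 2 left out (0.61, edgeR adjusted p = 0.0332) and with WT replicate 2 left out (0.68, edgeR adjusted p = 0.0243).

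Igfbp4 showed the largest change of the 10 members. This binding protein mostly blocks IGF action until the protease PAPP-A cuts it (ENSMUSG00000017493, chromosome 11, 99041244 to 99054392). It was counted at 113, 82.1 and 80.9 CPM in WT and at 26.4, 46.1 and 24.8 CPM in AXL KO libraries. All AXL KO libraries were below all WT libraries, and replicate 2 was the highest of them. The mean fell from 91.9 ± 18.1 to 32.4 ± 11.8 CPM, a log2 fold change of -1.50 ± 0.23 (SE, edgeR adjusted p = 0.00151). Its absolute log2 fold change was larger than that of 94.7% of tested genes. With 1 library left out it ranged from -1.84 to -1.33, and every such fit kept the call.

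Igfbp3, the main carrier of IGFs in blood (ENSMUSG00000020427, chromosome 11, 7206086 to 7213923), fell less. It was at 198, 233 and 190 CPM in WT and at 132, 156 and 150 CPM in AXL KO libraries, again without overlap. The mean went from 207 ± 23.0 to 146 ± 12.6 CPM, a log2 fold change of -0.51 ± 0.10 (SE, edgeR adjusted p = 0.0046), between -0.57 and -0.41 with 1 library left out. Its neighbour 3.54 kb away, Igfbp1, a liver product, had at most 1 count in a library.

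Igfbp5, which binds matrix as well as IGFs (ENSMUSG00000026185, chromosome 1, 72857932 to 72874884), rose from a high level. It was at 1461, 1869 and 1698 CPM in WT and at 1870, 2686 and 2852 CPM in AXL KO libraries. AXL KO replicate 1 was level with the highest WT library (1869.84 against 1869.35 CPM), and the other AXL KO libraries stood well above. The mean went from 1676 ± 205 to 2469 ± 526 CPM, a log2 fold change of 0.56 ± 0.16 (SE, edgeR adjusted p = 0.0217). The call was lost without WT replicate 1 (0.47, edgeR adjusted p = 0.0605), without WT replicate 3 (0.57, edgeR adjusted p = 0.0671) and without AXL KO replicate 3 (0.45, edgeR adjusted p = 0.0719).

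Igfbp2, which prefers IGF2 and also binds integrins, lies 5.46 kb from Igfbp5 on chromosome 1 (72824503 to 72852474) and did not move with it. It was at 15.6, 9.94 and 10.4 CPM in WT and 9.78, 14.9 and 9.95 CPM in AXL KO libraries, with full overlap. The estimate was a log2 fold change of -0.05, its 95% interval running between -0.55 and 0.44 (edgeR adjusted p = 0.869). Its sign turned without WT replicate 1 (0.18), AXL KO replicate 1 (0.05) or AXL KO replicate 3 (0.05). The difference between the 2 neighbours was not tested.

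The 4 binding proteins therefore took different shares of their summed level per kb of exon. Igfbp5 held 71.4%, 76.0% and 76.9% of it in WT and 85.4%, 86.8% and 88.9% in AXL KO libraries. Igfbp4 held 7.50%, 4.54% and 4.98% in WT and 1.64%, 2.02% and 1.05% in AXL KO libraries, and Igfbp3 16.5% to 18.6% and 9.00% to 11.5%. In each of these 3 the groups did not overlap. These shares rest on the same counts as the tests above and add no separate evidence.

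**Figure D2:**
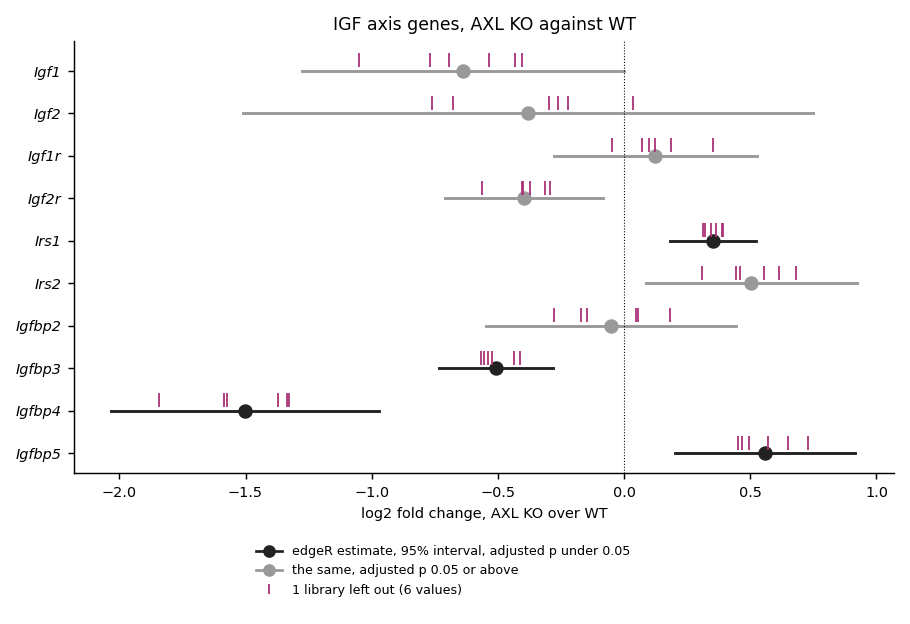
Log2 fold change of each IGF axis gene, AXL KO over WT. Points and lines are edgeR estimates with 95% intervals, black where the adjusted p was under 0.05 and grey elsewhere, and ticks are the 6 fits with 1 library left out. Igfbp4 stands at -1.50, Igfbp3 at -0.51, Irs1 at 0.35 and Igfbp5 at 0.56.

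In the table of their comparison that the authors deposited, 3 members were higher and 3 lower at an adjusted p under 0.05. The share of all genes called in that table is not given here. The DESeq2 fit made here also had 3 members higher and 3 lower, beside 2748 higher and 2785 lower of 14850 genes. The authors' deposited table gave Igfbp4 a log2 fold change of -1.43 ± 0.32 (the authors' SE, turned to AXL KO over WT), Igfbp3 -0.51 ± 0.11, Irs1 0.35 ± 0.09 and Igfbp5 0.55 ± 0.15. Beyond these 4, the authors' deposited table called Igf2r (adjusted p = 0.0202) and Irs2 (adjusted p = 0.0257). It did not call Igf1 (adjusted p = 0.207).

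Of 20 other genes of the IGF family and of ligand processing 11 could be tested. Of these 1 fell, Igfbp7, and none rose (edgeR), beside 18.3% lower and 19.1% higher of all tested genes, with a median log2 fold change of -0.0014. Irs3, a scarce adaptor gene at 0.688 ± 0.0515 CPM in WT and 0.432 ± 0.0867 CPM in AXL KO libraries, had groups that did not overlap and a log2 fold change of -0.67 that did not pass (edgeR adjusted p = 0.0857). None was called higher by DESeq2 or limma-voom either, and of the 11 none had a positive fold change with an unadjusted p under 0.05. A second gene, Stc2, was called lower by DESeq2. Igfbp7, a low-affinity relative of the binding proteins made by vessel cells, was at 172, 141 and 131 CPM in WT and 54.0, 92.9 and 61.4 CPM in AXL KO libraries. The groups were apart, and the log2 fold change was -1.09 ± 0.19 (SE, edgeR adjusted p = 0.00268), with a range from -1.36 to -0.94 when 1 library was left out.

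Genes that bear on the supply and release of IGF1 were given by level or did not pass. Ghr, the growth hormone receptor, lay at 36.2 ± 6.24 CPM in WT and 36.3 ± 1.77 CPM in AXL KO libraries. Pappa, the protease that cuts IGFBP4, was scarce in both groups, at 0.599 ± 0.321 and 0.584 ± 0.538 CPM. Stc2, a stanniocalcin that blocks this protease, was at 2.76, 8.37 and 5.72 CPM in WT and 2.83, 3.40 and 2.63 CPM in AXL KO libraries, with overlap. Its log2 fold change of -0.93 ± 0.34 (SE) did not pass (edgeR adjusted p = 0.0615), but did without WT replicate 1 (-1.25, edgeR adjusted p = 0.00329) and with DESeq2 (adjusted p = 0.0212) or no filter (edgeR adjusted p = 0.0322). Without WT replicate 2 it was -0.52 (edgeR adjusted p = 0.218). Its relative Stc1, named after its values were seen, was at 4.93, 6.41 and 5.83 CPM in WT libraries. In AXL KO libraries Stc1 was at 6.91, 6.64 and 7.16 CPM, without overlap and in the other direction. Its log2 fold change of 0.27 ± 0.14 (SE) did not pass (edgeR adjusted p = 0.168). Igfbp6 lay at 5.03 ± 2.41 and 3.97 ± 0.998 CPM. Insr, the insulin receptor, lay at 106 ± 17.4 and 118 ± 1.99 CPM, a log2 fold change of 0.15 ± 0.11 (SE, edgeR adjusted p = 0.326). The insulin genes Ins1 and Ins2, Irs4 and Igf2bp1 had no count in any library.

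Downstream of the receptors, 33 of 33 genes on a list of signalling components could be tested, and 10 rose and 3 fell. Beside them stand 19.1% of all tested genes higher and 18.3% lower, and the list's median log2 fold change was 0.09. Grb14, an adaptor that damps insulin and IGF receptor signalling, fell most. It was at 8.25, 9.97 and 10.7 CPM in WT and 1.84, 2.50 and 1.31 CPM in AXL KO libraries, 5.09-fold lower (log2 fold change -2.35 ± 0.23, SE, edgeR adjusted p = 0.000134). Its relative Grb10, an imprinted gene of the same kind of adaptor, rose from 60.9 ± 4.16 to 91.5 ± 6.28 CPM (log2 fold change 0.59 ± 0.09, SE, edgeR adjusted p = 0.0011). The 2 receptor-damping adaptors thus went opposite ways, each without overlap between groups.

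Among the genes that rose, Pik3r1, the main regulatory subunit of PI3-kinase, went from 210 ± 11.8 to 332 ± 15.8 CPM, 1.58-fold (edgeR adjusted p = 0.000333). Rps6kb1, the S6 kinase below mTOR, rose from 65.6 ± 2.22 to 101 ± 3.54 CPM, 1.54-fold (edgeR adjusted p = 0.000327). The following called genes were named after their values were seen. Also higher were the PI3-kinase subunits Pik3cb (1.42-fold) and Pik3r3 (1.31-fold), Mtor (1.42-fold), its partner Rptor (1.39-fold), the mTOR brake Tsc1 (1.24-fold), the transcription factor Foxo4 (1.28-fold) and the phosphatase Ptpn11 (1.15-fold). Akt1, the kinase between PI3-kinase and mTOR, fell from 309 ± 12.3 to 257 ± 0.760 CPM (edgeR adjusted p = 0.0133), and Eif4ebp1, a brake on translation that mTOR releases, fell 1.39-fold. Leaving out WT replicate 3, or AXL KO replicate 3, gave 6 genes higher and 1 lower, with the calls of Mtor, Akt1, Eif4ebp1, Pik3r3, Tsc1 and Ptpn11 lost. Calls over all genes fell too, from 2835 higher and 2717 lower of 14850. They numbered 2051 and 1966 of 15104 without WT replicate 3, and 2000 and 1733 of 15024 without AXL KO replicate 3. Without WT replicate 1 the list had 9 genes higher and 4 lower, beside 2721 and 2616 of 15074. Calls were also lost for Tsc1 without WT replicate 1 or AXL KO replicate 1 or 2, for Ptpn11 without WT replicate 1 or AXL KO replicate 1, for Akt1 without AXL KO replicate 1 and for Eif4ebp1 without WT replicate 2. The other 20 genes did not pass, among them the transcription factor Foxo1, with a log2 fold change of 0.09 ± 0.09 (SE, edgeR adjusted p = 0.472).

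**Figure D3:**
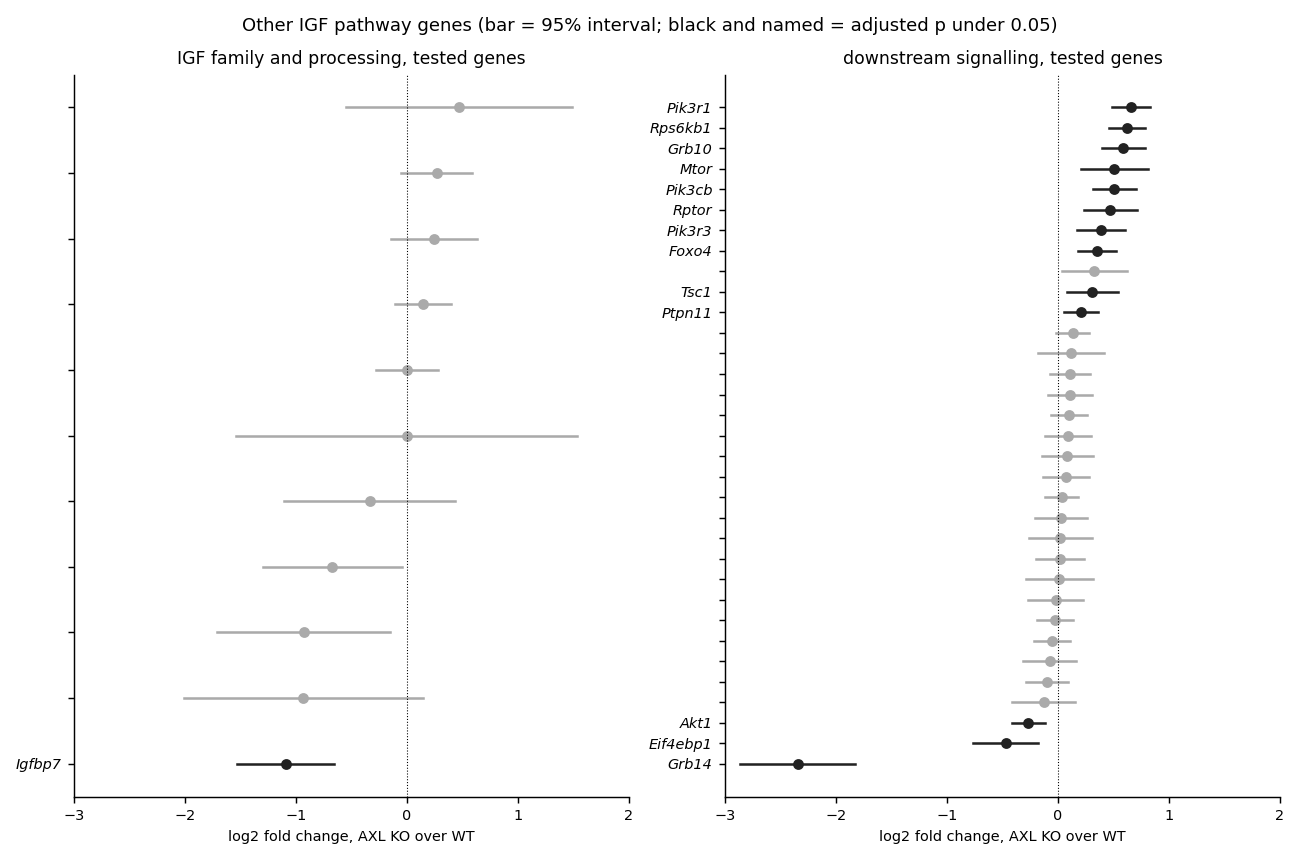
Log2 fold change, AXL KO over WT, of the tested genes of the family and processing list (left, 11 genes) and of the downstream list (right, 33 genes). Points are edgeR estimates, lines 95% intervals, and black points with a name mark an adjusted p under 0.05. Igfbp7 at -1.09 and Grb14 at -2.35 stand at the lower ends.

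Some members shared their order of libraries with the summed markers of some cell types, but not of others. WT replicate 1 was the highest WT library and AXL KO replicate 2 the highest AXL KO library in Igf1, Igfbp2 and Igfbp4, an order shared by 17.4% of all tested genes. The summed level of 10 fibroblast markers had the same order, at 3266, 2253 and 2000 CPM in WT and 1521, 2482 and 1498 CPM in AXL KO libraries. The macrophage sums shared it, at 564, 447 and 422 CPM in WT and 483, 577 and 422 CPM in AXL KO libraries. So did the sums of the scarce myoepithelial and skeletal muscle markers. The endothelial and pericyte sums did not, being highest in WT replicate 2 among WT libraries. Nor did the adipocyte sums, highest in AXL KO replicate 1 among AXL KO libraries. The opposite order, with WT replicate 1 and AXL KO replicate 2 lowest in their groups, was seen in Igf2r and Irs2 and in 18.4% of tested genes. The epithelial sums had it, at 11538, 12843 and 11749 CPM in WT and 13759, 11563 and 12892 CPM in AXL KO libraries. The T cell sums had it as well. Of the 10 fibroblast markers 1 fell, Col6a3, the other 9 were not called, and the groups' sums overlapped. That call was lost without WT replicate 2 or 3 or AXL KO replicate 1 or 3, and 4 fell without AXL KO replicate 2. In the fit without WT replicate 3, 1 marker of the list was called lower.

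Set against the fibroblast markers, Igf1 and Igfbp4 behaved differently. The scale here, chosen after the data were seen, is the gene's CPM per 1000 CPM of summed fibroblast markers, with no test. Most of that sum is Col1a1, Col1a2 and Col3a1, at 706, 847 and 1112 of 3266 CPM in WT replicate 1. Igf1 was at 12.6, 11.6 and 14.9 in WT and 11.6, 12.5 and 9.06 in AXL KO libraries, with overlap. Igfbp4 was at 34.5, 36.4 and 40.4 in WT and 17.4, 18.6 and 16.6 in AXL KO libraries, without overlap and 2.12-fold lower in the mean. Igfbp5 was at 447 to 849 in WT and 1082 to 1904 in AXL KO libraries on the same scale, and Irs1 at 37.8 to 65.5 and 67.6 to 105. Igfbp3 was at 60.7, 103.6 and 95.1 in WT and 86.5, 62.7 and 100.4 in AXL KO libraries, with overlap and a log2 ratio of -0.06. Igfbp2 was at 4.41 to 5.20 and 5.99 to 6.65, so that on this scale its groups did not overlap.

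**Figure D4:**
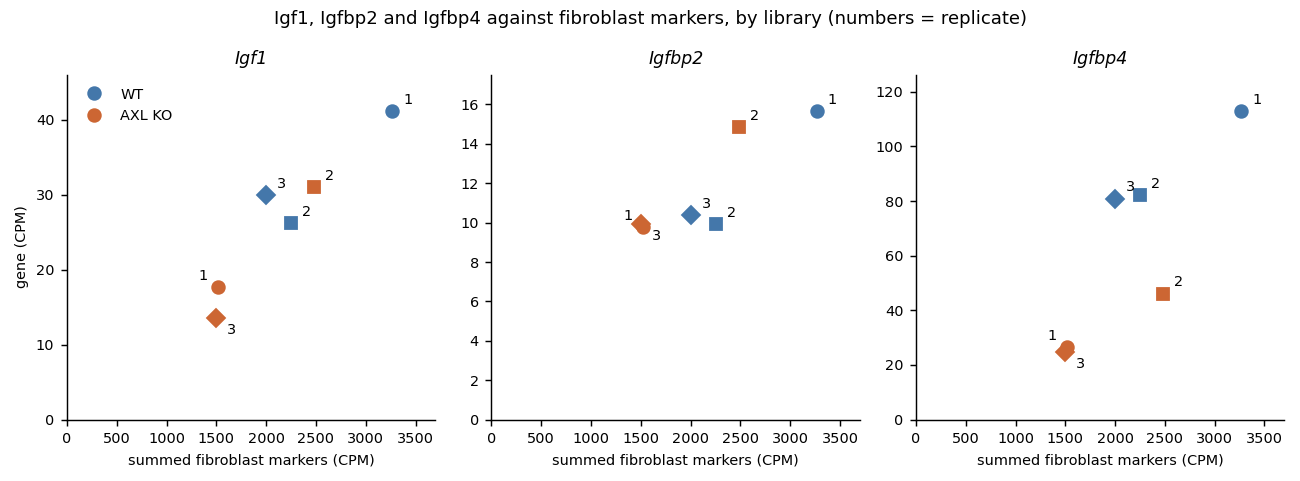
Level of Igf1, Igfbp2 and Igfbp4 (vertical axes, CPM) against the summed fibroblast markers (horizontal axis, CPM) in each of the 6 libraries, with replicate numbers beside the points and both axes from 0. WT replicate 1 (3266 CPM of markers) and AXL KO replicate 2 (2482 CPM) lie farthest right, and for Igfbp4 every AXL KO library lies under the WT libraries.

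Most vessel markers were lower in AXL KO libraries, as were Igfbp3, Igfbp4 and Igfbp7. Of 9 endothelial markers 8 fell, with a summed level of 268 to 309 CPM in WT and 159 to 217 CPM in AXL KO libraries, and 7 of 9 markers of pericytes and smooth muscle fell, their sums lying at 545 to 629 and 338 to 411 CPM. The pericyte marker Abcc9 went the other way, from 55.3 ± 15.5 to 83.9 ± 19.5 CPM, and did not pass (edgeR adjusted p = 0.0513), while upper-quartile factors, DESeq2, limma-voom and no filter each gave 1 marker of that list called higher. No marker of either list was at 0. Per 1000 CPM of pericyte markers Igfbp3 was at 356, 371 and 349 in WT and 371, 379 and 445 in AXL KO libraries, so that its groups overlapped and its direction turned (0.15 on the log2 scale). Igfbp4 on that scale was at 131 to 203 in WT and 73.5 to 112 in AXL KO libraries, still without overlap and 1.85-fold lower. With Abcc9 left out of the sum, Igfbp3 was at 385 to 419 in WT and 453 to 581 in AXL KO libraries, without overlap and higher (0.39 on the log2 scale), and Igfbp4 was 1.58-fold lower without overlap. The part of vessel cells in the level of Igfbp7 was not tested.

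Of 11 macrophage markers 1 rose (Fcgr1) and 1 fell (Cd14), with sums of 422 to 564 CPM in WT and 422 to 577 CPM in AXL KO libraries. On the scale of these markers Igf1, which macrophages also make, was at 58.7 to 72.8 per 1000 CPM in WT and 32.1 to 53.8 in AXL KO libraries, without overlap. Of the called members, Irs1 overlapped there (219 to 310 in WT, 291 to 373 in AXL KO libraries). So did Igfbp5 (2589 to 4185 and 3875 to 6756) and Igfbp3 (352 to 523 and 270 to 356). Igfbp4 did not (184 to 200 and 54.8 to 79.9). Of 7 epithelial markers tested 5 fell and 1 rose. Per 1000 CPM of their sum Irs1 was at 9.24 to 11.2 in WT and 11.0 to 14.5 in AXL KO libraries, with overlap, and Igfbp5 at 127 to 146 and 136 to 232, also with overlap. Igfbp3 was there at 16.2 to 18.2 and 9.56 to 13.5, without overlap, and Igfbp4 was 2.94-fold lower without overlap. The epithelial sum is mostly Erbb2, the marker that rose. With Erbb2 left out, Irs1 was at 24.2 to 26.4 in WT and 40.4 to 48.2 in AXL KO libraries and Igfbp5 at 313 to 382 and 499.8 to 847, neither with overlap. On that scale Igfbp4 was 2.07-fold lower without overlap, and Igfbp3 overlapped, at 38.2 to 47.7 and 35.2 to 44.7. Of 8 T cell markers 7 rose, from sums of 8.28 to 11.9 CPM to 21.8 to 24.1 CPM. None of 7 adipocyte markers was called by edgeR, DESeq2 or limma-voom, and 0 had an unadjusted edgeR p under 0.05, with sums of 122 to 209 and 54.1 to 155 CPM. Without AXL KO replicate 1, 1 of them was called lower. Skeletal muscle markers summed to at most 1.30 CPM and myoepithelial markers to at most 3.94 CPM in any library.

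Across the 6 libraries, the genes outside the axis whose log2 CPM followed Igfbp4 most closely were Hoxa7, Ociad1 and Hpn, with a Pearson r of 0.998 for each among 11466 genes. For Igf1 they were Rpl39, Tyw5 and Cdh11 (r = 0.998, 0.997 and 0.994), and for Igfbp5 Fnbp1l, Map2 and Slx4 (r = 0.989, 0.985 and 0.982). These values describe 6 libraries that share 1 group difference, were picked as the largest of many, and carry no test.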

How the data were processed

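Raw counts per gene were deposited for 3 WT and 3 AXL KO graft libraries, and groups were taken from the sample titles. The submitters' processing notes list CASAVA 1.8, TopHat2 2.0.10, GRCm38, HTSeq 0.5.3 and DESeq2 1.4.5, and the use of strand is not given in the sources used here. The authors' deposited table holds a signal per library (counts divided by a size factor), log2 fold changes with standard errors, a test statistic (score) and p-values, and it was compared, not retested. Its log2 fold changes run from AXL KO to WT and were turned round. Rows that name no gene were left out of library sizes: non-unique alignments were 25.7% to 29.0% of counted lines, those in no gene 4.41% to 6.88% and ambiguous ones 0.717% to 1.09%.

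Genes were kept by filterByExpr (minimum count 10, total 15), scaled by TMM (0.980 to 1.02) and tested in R 4.3.3 by edgeR's quasi-likelihood method (edgeR 4.0.16) with group as the only term, 4 residual degrees of freedom and Benjamini-Hochberg adjustment over 14850 genes at 0.05. Standard errors were the absolute log2 fold change over the root of F. An exact permutation test of 3 against 3 cannot go below p = 0.1. Replicates differed beyond sampling noise (chi-square per gene 11.1 to 29.6), so all 6 libraries were counted. The steps were tested on simulated data. Exon lengths and overlaps came from GENCODE M21 (GRCm38), promoters from RefSeq.

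The members and lists were chosen with earlier results of these data known. The text names the 10 members, up to 4 genes of each other list by smallest p, a few pathway genes chosen by role, and for members the 3 genes with the highest Pearson r. Others are said to be chosen later, and some list genes are counted but not reported here by name. Alternatives were other size factors, DESeq2 1.42.0, limma 3.58.1 (voom), no filter, a mean log2 CPM of at least 2, a replicate block, each library left out, an adjusted p of 0.01 and a 2-fold minimum. Levels relative to marker sums were added after seeing the data.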

Additional observations from a re-analysis of the deposited data

How the results depend on the processing

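Igfbp3, Igfbp4 and Irs1 kept their direction and their call in every edgeR, DESeq2 and limma-voom fit and with each library left out. With 1 library left out, the members called numbered 1 to 3 higher and 2 to 3 lower, the family and processing genes 1 to 2 lower, and the downstream genes 6 to 10 higher and 1 to 4 lower. Over all 15024 to 15104 genes tested in those fits, 2000 to 2846 were higher and 1733 to 2828 lower. At an adjusted p under 0.01, 1 member was higher and 2 were lower, beside 1610 higher and 1464 lower of 14850 tested genes. At that cutoff 1 family and processing gene was lower, and 6 downstream genes were higher and 1 lower. With a 2-fold minimum, 0 members were higher and 1 lower (Igfbp4), and 0 downstream genes were higher and 1 lower (Grb14). The family and processing list had 1 lower gene there, and of all tested genes 764 were higher and 716 lower. The family and processing genes called lower numbered 2 with DESeq2 and 2 without a filter, beside 2785 of 14850 and 2663 of 21716 genes. DESeq2 called 3 members higher and 3 lower, beside 2748 higher and 2785 lower of 14850 genes. Igf2r was also called with DESeq2 size factors (edgeR adjusted p = 0.0484), upper-quartile factors (0.0337) and no filter (0.0278). With 1 library left out, log2 fold changes of both signs were seen for Igf1r (-0.049 to 0.35), Igfbp2 (-0.28 to 0.18) and Igf2 (-0.76 to 0.03). Igfbp3 turned relative to pericyte markers (0.15, or 0.39 without Abcc9) or endothelial markers (0.14). The cause was not tested.

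Replicate numbers are shared between the groups, but nothing in the labels pairs them, and the deviations of same-numbered libraries from their group means correlated at r = -0.05, -0.12 and 0.18, and not every library correlated best with its own number. With the replicate block, 2 members were higher and 2 lower, and 8 downstream genes were higher and 3 lower. Over all 14850 tested genes, 2458 were higher and 2373 lower in that fit. Tsc1 (adjusted p = 0.0657) and Ptpn11 (adjusted p = 0.0937) were not called by edgeR there. Depth limits Igf2, with 4 to 16 counts per library.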
